A study of Mus musculus with 8 samples.

Results

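The genes described here are the 3 zona pellucida genes Zp1, Zp2 and Zp3, the oocyte growth factor genes Gdf9 and Bmp15, the oocyte-secreted protein gene Oosp1, and the oocyte transcription factor genes Figla and Nobox. They were taken by symbol from a list whose rule uses no measured value, though the list was drawn up with earlier results of these data known, and all 8 of the 8 were found among the 22667 genes listed. Polyadenylated RNA was sequenced from whole mouse embryos of B6CBA F1 crosses that had been microinjected at the 1-cell stage with mRNA. The injected mRNA was mCherry (a fluorescent protein, the control), Snrpb, Snrpd2, or Snrpb together with Snrpd2. The last 3 injections give extra mRNA for Sm proteins, which form the ring on the small nuclear RNAs of the spliceosome, and are called Sm injections below. RNA was taken at 5 h, while the embryos were at the 1-cell stage, or at 24 h, when they had reached the 2-cell stage, which gives 8 conditions with 1 library each. For every library 40 embryos of 3 separate experiments were combined, so the spread between embryos and between experiments was not measured.

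The zona pellucida is the glycoprotein coat of the egg, and mouse eggs build it from ZP1, ZP2 and ZP3 while the oocyte grows. GDF9 and BMP15 are TGF-beta family ligands that the oocyte secretes to the granulosa and cumulus cells around it. FIGLA, a basic helix-loop-helix protein, and NOBOX, a homeodomain protein, are transcription factors that switch on such genes in the growing oocyte. An embryo inherits these transcripts from the egg, and most maternal mRNA in the mouse is destroyed around the 2-cell stage, when the embryonic genome becomes active.

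Zp3 and Oosp1 are the members that moved farthest in the 2 directions between the stages, and their promoters are shown for comparison. They come from RefSeq's table on GRCm38.p6, which also holds Bmp15, Figla and Nobox, and run from 250 bases before to 50 bases after the annotated start. Zp3 is at chr5:135979855-135980154 on the plus strand and Oosp1 at chr19:11691002-11691301 on the minus strand. Capitals mark the E-box, CANNTG, the element that basic helix-loop-helix proteins such as FIGLA bind.
Zp3: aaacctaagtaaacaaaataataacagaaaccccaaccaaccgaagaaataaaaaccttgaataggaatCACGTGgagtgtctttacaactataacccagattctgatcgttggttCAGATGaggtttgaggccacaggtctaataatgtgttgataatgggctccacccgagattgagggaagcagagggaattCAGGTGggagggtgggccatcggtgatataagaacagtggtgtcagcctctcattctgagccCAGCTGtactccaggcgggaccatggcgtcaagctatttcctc
Oosp1: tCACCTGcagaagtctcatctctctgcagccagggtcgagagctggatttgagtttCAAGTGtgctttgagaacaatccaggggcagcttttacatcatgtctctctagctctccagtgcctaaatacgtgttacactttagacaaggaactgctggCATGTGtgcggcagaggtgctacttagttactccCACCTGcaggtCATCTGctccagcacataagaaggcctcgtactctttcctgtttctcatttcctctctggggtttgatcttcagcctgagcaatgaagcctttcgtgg
The window of Zp3 held 4 E-boxes, whose first bases lay at -181, -134, -55 and 7 from the start base. Oosp1 had 5, at -249, -194, -93, -59 and -48. Figla had 4, Nobox 2 and Bmp15 1, and 72.3% of the 32851 promoters in the table held at least 1, with a median of 1. Of the letters TAATTG and TAATTA, homeodomain-type sites searched for NOBOX on both strands, the first matched none of the 5 windows and the second matched Bmp15 alone, against 8% and 5.29% of all promoters. The letters TATAAA, searched on both strands, also matched Bmp15 alone, against 13.6% of all promoters. The member with the sharpest fall and the member that rose therefore both carried several E-boxes in these windows, and a match describes the sequence and shows no binding.

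In GENCODE vM21 on the same build, Zp1 and Oosp1 lie on chromosome 19, Zp2 on chromosome 7 and Zp3 on chromosome 5. Gdf9 lies on chromosome 11, Bmp15 on chromosome X, and Figla and Nobox on chromosome 6. Starts differ between the annotations. By GENCODE the span of Oosp1 reaches 11691150, so its E-boxes at -93, -59 and -48 lie inside the gene. The span of Figla starts at 86016171, before its promoter window, which runs from 86016941 to 86017240. The number of other genes with an exon inside the span of a member was 0, so reads of an overlapping neighbour do not enter their values by that annotation.

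The 3′ ends are shown because maternal transcripts are stored and deadenylated through them. Each run is from the longest protein-coding transcript in GENCODE vM21 and ends with its polyadenylation hexamer (AATAAA or ATTAAA, in capitals). For Oosp1, which had neither hexamer in the last 40 bases, the run is the last 30 bases. The letters TTTTAT and TTTTAAT, forms of the cytoplasmic polyadenylation element, were searched on the transcript's strand in the last 100 bases and are also in capitals.
Zp1: aggcatcagatATTAAAtggactcAATAAA
Zp2: ccttgctgtttgtctttaaactctAATAAA
Zp3: cttcctaccttgtatcccttccgcAATAAA
Gdf9: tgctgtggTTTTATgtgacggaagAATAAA
Bmp15: ttatgtattttcttaatcttaaagAATAAA
Oosp1: ctaatgatcataaatagttattttttcttg
Gdf9 was the member with a cytoplasmic polyadenylation element (TTTTAT), and 17.0% of 19727 genes had at least 1 in that window. A hexamer stood within the last 40 bases in 6 of the 8 members, Oosp1 and Nobox being the others, against 72.8% of genes. The stretch after the stop codon was short in the zona genes, 13 bases in Zp3, 34 in Zp1 and 173 in Zp2, where the median over genes was 947. It was 120 bases in Figla, 230 in Oosp1, 281 in Nobox, 360 in Gdf9 and 1523 in Bmp15. So the members differ widely in how much sequence follows their coding region, and Bmp15 was the member above the median of genes.

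The libraries held between 39492734 and 59979046 counted reads. The labels were checked on the injected genes. Snrpb stood at 43850 and 11913 cRPKM in the 1-cell libraries given it, against 7.96 and 6.09 cRPKM in the other two, and Snrpd2 at 17926 and 9142 cRPKM, against 1.89 and 0.85 cRPKM. The value cRPKM is the deposited expression level, reads per kilobase of gene scaled to the library total, so it can be compared between genes. Markers of the 2-cell embryo (6 genes such as Zscan4c and Zfp352) summed to 11.2 to 16.8 cRPKM in the 1-cell libraries and 779 to 1058 cRPKM in the 2-cell libraries. Gm5662 alone held 533 to 828 cRPKM of the 2-cell sums and was at 0 in the 1-cell libraries. Zfp352 went from 1.94 to 2.76 cRPKM up to 55.5 to 65.0 cRPKM, and Zscan4c from 0.26 to 0.32 cRPKM up to 5.41 to 8.18 cRPKM. With 1 library per condition, the 4 injections stood in for replicates in every test of the stage. Injection was a term of that model, so its error reflects how the stage change differed between injections, as well as technical differences.

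Levels per length ranged widely among the members. Among the 1-cell libraries the order by mean cRPKM was Bmp15, Gdf9, Oosp1, Nobox, Zp3, Zp2, Zp1 and Figla. In that order Gdf9 overlapped Oosp1, and Zp3 overlapped Zp2, in their ranges over the 4 libraries, while the other neighbours did not overlap. Among the 2-cell libraries the order was Oosp1, Bmp15, Gdf9, Nobox, Zp2, Zp1, Zp3 and Figla, and only Oosp1 and Bmp15 overlapped. By cRPKM Bmp15 held ranks 9 to 18 among all genes at the earlier stage and 30 to 39 at the later one. Oosp1 moved the other way, from ranks of 81 to 109 up to ranks of 27 to 30.

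**Figure D1:**
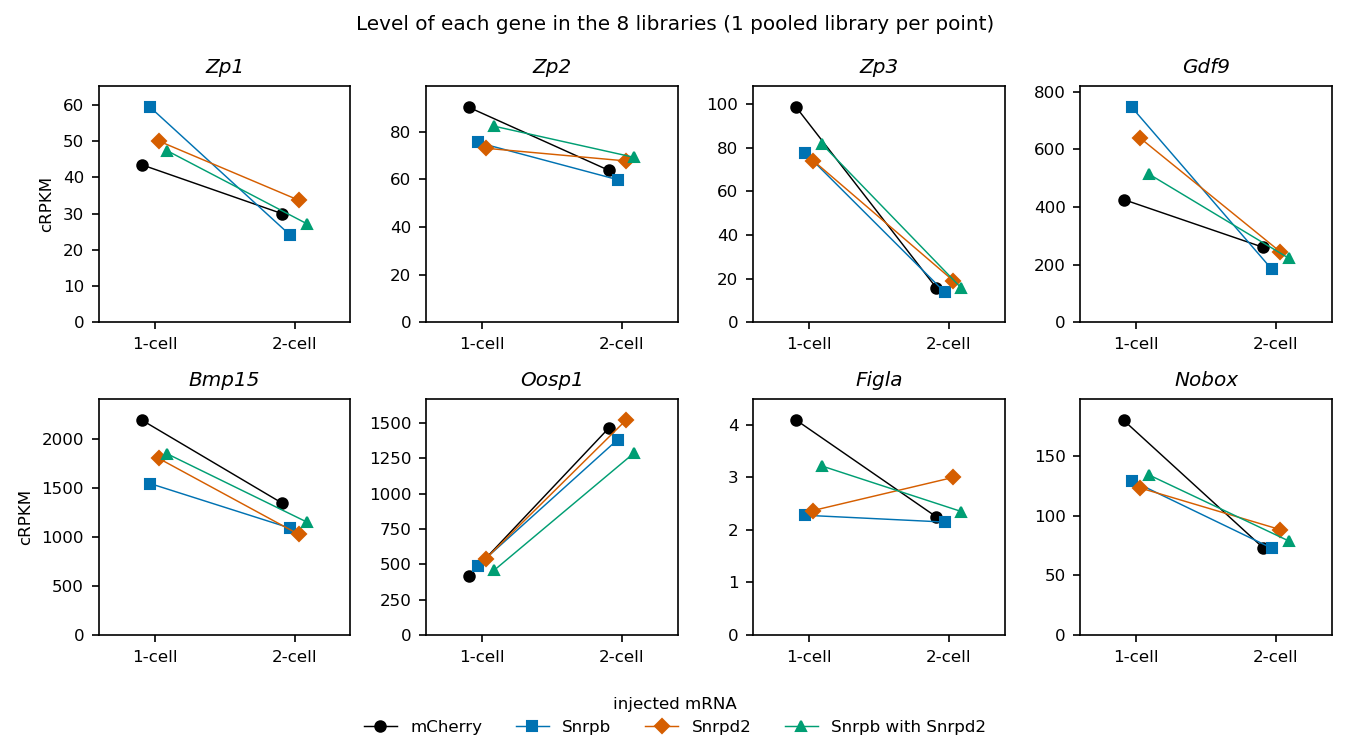
Level of each gene (vertical axis, cRPKM, a scale of its own in each panel that starts at 0) at the 1-cell and 2-cell stages (horizontal axis), with 1 point per pooled library and a line joining the libraries of 1 injection. Zp3 falls from 74.0 to 98.4 cRPKM down to 13.8 to 19.1 cRPKM, Oosp1 rises to 1289 to 1519.9 cRPKM, and the stages overlap for Figla alone.

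The first comparison asked how these maternal transcripts stood in 2-cell against 1-cell embryos. Levels are relative to the reads of each library, so the rises and falls given are relative. Amounts per embryo were not measured. Of the 8 members, 6 fell (Zp1, Zp2, Zp3, Gdf9, Bmp15 and Nobox), 1 rose (Oosp1) and Figla did not pass the test, at an adjusted p of 0.05 in edgeR's quasi-likelihood test with Benjamini-Hochberg adjustment. Over all 16264 genes tested, 32% were called lower and 38.1% higher, 70.1% in all. The median log2 change was -0.998 over the 8 members and 0.15 over all genes. The same 6 members were lower, and Oosp1 higher, in every 2-cell library than in every 1-cell library by cRPKM. That held in the lower direction for 24.8% of genes and in the higher direction for 42.8%. All 8 members passed the filter on low counts.

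Among the zona genes Zp3, whose protein is a structural filament component and was described as the primary sperm receptor of the mouse egg, showed the steepest fall. It stood at 98.4, 77.7, 74.0 and 81.8 cRPKM in the 1-cell libraries (mCherry, Snrpb, Snrpd2 and both mRNAs, in that order here and below) and at 15.8, 13.8, 19.1 and 15.6 cRPKM in the 2-cell libraries. All 4 libraries of the later stage were below all 4 of the earlier one, by a wide margin. The fall was 6.19-fold (log2 -2.63, SE 0.14, edgeR adjusted p = 1.01e-07), and 2.9% of all genes tested had a lower log2 change. Zp2, whose protein is cleaved after fertilisation when the coat stops binding sperm, stood at 90.1, 75.5, 73.0 and 82.2 cRPKM and then at 63.7, 59.8, 67.7 and 69.2 cRPKM. The stages came close without overlapping, and the fall was 1.47-fold (log2 -0.56, SE 0.11, edgeR adjusted p = 0.00107). Over the 15 alternative settings and left-out libraries, the Zp2 change ran from -0.65 to -0.29 and passed in 15. Zp1, which cross-links the filaments of the coat, stood at 43.5, 59.4, 50.1 and 47.4 cRPKM and then at 30.01, 24.0, 33.7 and 27.2 cRPKM. Its fall was 2.09-fold (log2 -1.06, SE 0.15, edgeR adjusted p = 0.000123).

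The 3 transcripts of the coat thus fell by unequal amounts, and their proportions shifted. Zp3 made up 36.6% to 42.4% of the summed zona cRPKM in the 1-cell libraries and 13.9% to 15.8% in the 2-cell libraries. Over the same libraries Zp2 went from 35.5% to 38.9% of the sum to 56.2% to 61.8%. Neither share overlapped between the stages, and the share of Zp1 did, at 18.7% to 27.9% and 24.3% to 28.0%. The summed level was 197 to 232 cRPKM at first and 97.6 to 120.5 cRPKM later. These shares are within each library and so do not depend on scaling between libraries.

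Gdf9 and Bmp15, the secreted ligands, were the growth factor genes and both fell. Gdf9 stood at 426, 746, 639 and 515 cRPKM in the 1-cell libraries and at 259.7, 184, 245 and 222 cRPKM in the 2-cell libraries. The earlier libraries were spread widely, with mCherry lowest and Snrpb highest, and the later ones lay below all of them. The fall was 3.01-fold (log2 -1.59, SE 0.20, edgeR adjusted p = 4.6e-05). Within single injections it ran from 1.97-fold (95% interval 1.94 to 2.00, counting error only) with mCherry to 5.22-fold (5.13 to 5.32) with Snrpb. Bmp15 stood at 2197, 1548, 1806 and 1853 cRPKM and then at 1349.5, 1092, 1029 and 1154 cRPKM. It was highest with mCherry at each stage, and the fall was 1.91-fold (log2 -0.93, SE 0.11, edgeR adjusted p = 2.83e-05).

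Bmp15 was the more abundant of the pair in every library. Its level per length was 5.16, 2.08, 2.83 and 3.60 times that of Gdf9 in the 1-cell libraries and 5.20, 5.95, 4.21 and 5.19 times in the 2-cell libraries. The mCherry embryos had nearly the same ratio at both stages. Each of the Sm injections had a lower ratio before the first division than after it. Each ratio rests on 1 library, and neither gene passed the tests of the Sm effect given below.

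**Figure D2:**
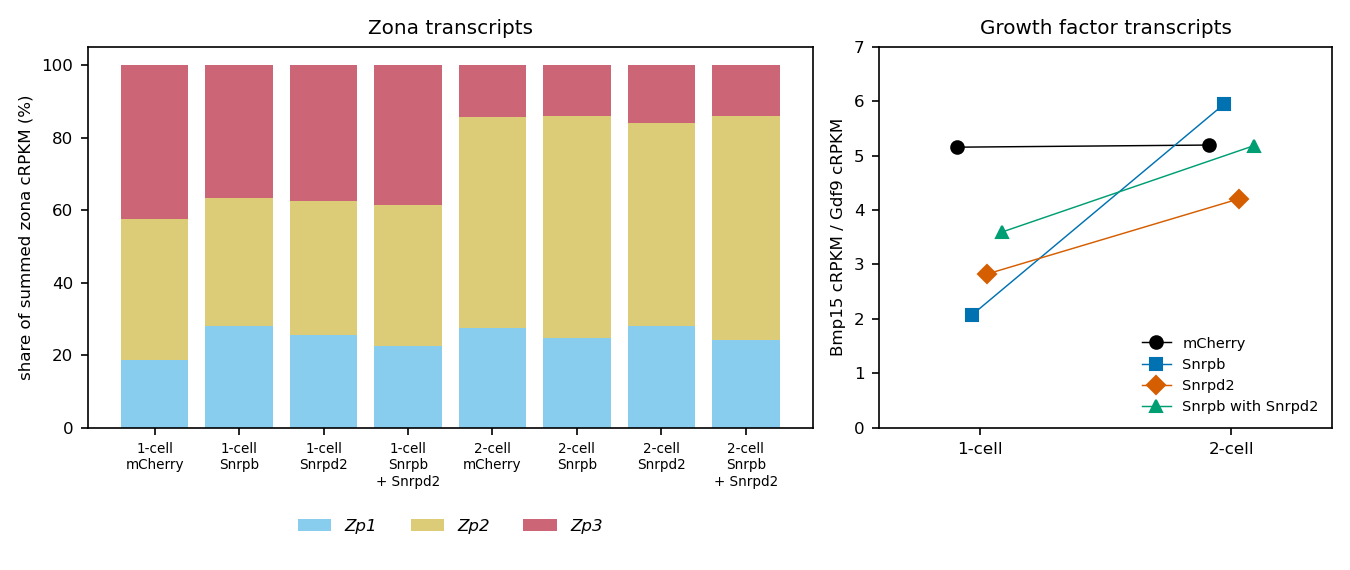
Left, share of the summed zona cRPKM held by Zp1, Zp2 and Zp3 (stacked bars, %, 1 bar per library). Right, Bmp15 cRPKM divided by Gdf9 cRPKM (vertical axis from 0) at each stage, 1 point per library joined by injection. The Zp3 share is 36.6% to 42.4% in the 1-cell bars and 13.9% to 15.8% in the 2-cell bars, and the mCherry ratio is 5.16 and 5.20 where the Snrpb ratio is 2.08 and 5.95.

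Oosp1, which encodes a small secreted protein of the oocyte, was the member that rose. It stood at 418, 489, 541 and 459 cRPKM in the 1-cell libraries and at 1467, 1382, 1519.9 and 1289 cRPKM in the 2-cell libraries. The lowest later library was more than 2-fold above the highest earlier one, and the rise was 2.48-fold (log2 1.31, SE 0.12, edgeR adjusted p = 4.09e-06). In the ordered changes of all genes, 72.5% had a lower log2 change than Oosp1, so a rise of this size was common in these data. Oosp2 and Oosp3, genes of the same family, did not rise. Oosp3 was at 591 to 768 cRPKM in the 1-cell libraries and 526 to 676 cRPKM in the 2-cell libraries (log2 -0.42, SE 0.13, edgeR adjusted p = 0.013), a call that passed in 8 of the 15 alternatives and was -0.16 (edgeR adjusted p = 0.241) with library totals as the scaling. Oosp2 fell from 101 to 173 cRPKM to 22.7 to 35.3 cRPKM. The ratio of Oosp1 to Oosp3 was 0.70 to 0.74 within the 1-cell libraries and 2.17 to 2.46 within the 2-cell libraries. In poly(A) RNA a change in the amount of a transcript and a change in its poly(A) tail cannot be told apart, for this gene or for those that fell.

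The 2 transcription factor genes had very unequal levels. Nobox stood at 180.1, 129, 123 and 134 cRPKM in the 1-cell libraries and at 72.8, 72.7, 88.3 and 78.9 cRPKM in the 2-cell libraries. The mCherry library was highest of the earlier 4, and no library of the later stage reached the earlier range. The fall was 2.15-fold (log2 -1.10, SE 0.13, edgeR adjusted p = 3.66e-05). Figla, which is needed for primordial follicles to form and for expression of the zona genes, stood at 4.09, 2.28, 2.37 and 3.22 cRPKM and then at 2.25, 2.15, 3 and 2.35 cRPKM. Its stages overlapped, and only 62 to 162 reads lay behind each value. Its log2 change was -0.52 (SE 0.29, edgeR adjusted p = 0.133), and it passed under none of the 15 alternatives. Within single injections the ratio of the later to the earlier library was 0.46 with mCherry (95% interval 0.34 to 0.61, counting error only), 0.73 with Snrpb (0.53 to 1.02), 0.97 with Snrpd2 (0.72 to 1.31) and 0.62 with both (0.45 to 0.84).

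Within single injections the number of members past 2-fold was much the same. A gene counted when it had at least 50 reads in either library, a ratio of at least 2-fold and a counting interval beyond no change. By that rule 3 members were lower with mCherry, 4 with Snrpb, 3 with Snrpd2 and 4 with both mRNAs, and Oosp1 was higher in each. In the same order the rule called 26.6%, 25.7%, 24.3% and 25% of all genes lower and 27.2%, 26%, 26.2% and 26% higher. Zp3 was past 2-fold in all 4 injections, Gdf9 and Nobox in 3 each, Zp1 in 2, Bmp15 and Figla in 1 each, and Zp2 in 0. These ratios took their TMM factors from all genes, where the fit took them from genes past the low-count filter. With both mRNAs, Nobox (2.02-fold) and Zp1 (2.07-fold) lay near the threshold. The fall of Zp3 ran from 5.04-fold with Snrpd2 to 7.49-fold with mCherry, and that of Zp1 from 1.74-fold with mCherry to 3.18-fold with Snrpb.

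**Figure D3:**
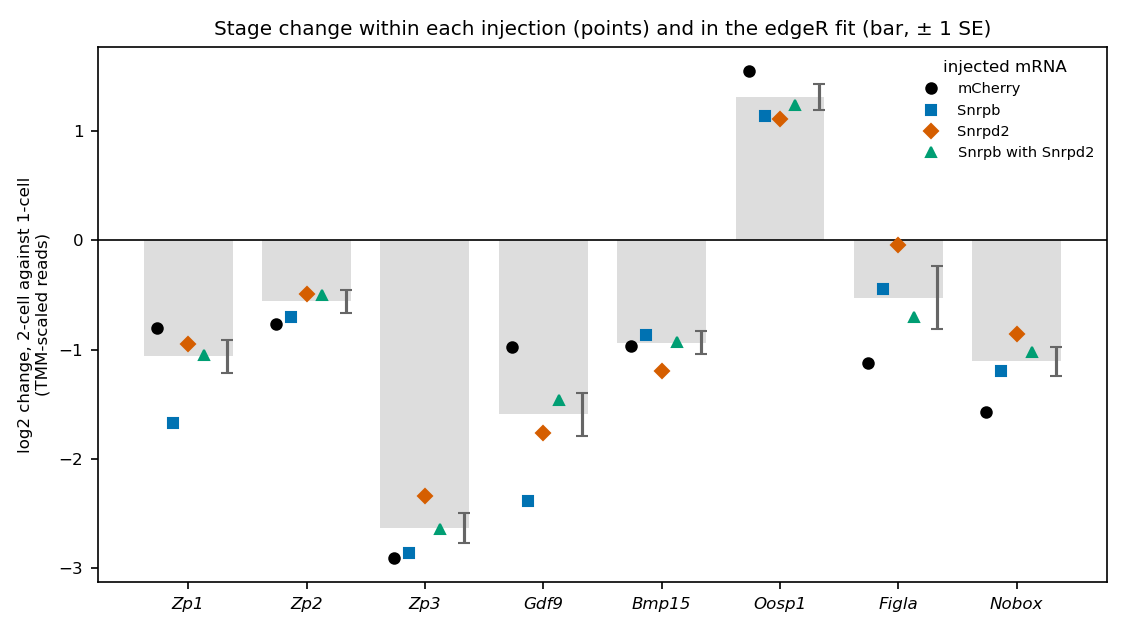
Log2 change of 2-cell against 1-cell embryos on TMM-scaled reads (vertical axis) for each gene (horizontal axis): points are single injections, the bar is the estimate over the 8 libraries and the whisker is 1 standard error on each side. Zp3 is lowest at -2.63, Oosp1 alone lies above 0 at 1.31, and the points of Gdf9 spread from -0.98 with mCherry to -2.38 with Snrpb.

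TMM scaling, which assumes that most genes keep their share, set these changes. With library totals in place of TMM the median change of all genes moved from 0.15 to 0.41, and the members' changes moved with it. The genes called over the whole table moved from 6198 higher and 5198 lower to 7273 higher and 4161 lower, of 16264 tested. The 7 calls above passed in all 15 alternatives, which were 3 other scalings, no filter, DESeq2, limma at 2 pseudocounts and each library left out, and each kept its direction.

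The genes that act with the members were followed in lists fixed by function. The background for each count below is the 32% of all genes called lower and the 38.1% called higher. Among 6 egg coat and egg surface partners, 4 fell and 0 rose, with a median log2 change of -1.46. Oosp2 fell 5.25-fold (log2 -2.39, SE 0.12, edgeR adjusted p = 7.57e-08). Astl, which encodes ovastacin, the protease that cleaves ZP2 at fertilisation, fell 5.18-fold (log2 -2.37, SE 0.15, edgeR adjusted p = 3.54e-07), from 34.7 to 52.2 cRPKM down to 8.66 to 10.3 cRPKM. Of 4 proprotein convertases, enzymes that cut secreted precursors such as zona proteins and TGF-beta ligands, 3 fell. Furin fell 1.78-fold (log2 -0.83, SE 0.11, edgeR adjusted p = 9.03e-05). Pcsk5 changed by -0.93 (SE 0.34, edgeR adjusted p = 0.0315), and stood at 2.36 cRPKM in the 1-cell Snrpb library against 0.79 to 0.96 cRPKM in the other 1-cell libraries. Without that library its change was -0.45 (edgeR adjusted p = 0.112), and with library totals it was -0.67 (edgeR adjusted p = 0.0907) and 1 of the 4 convertases was called.

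The receptors and SMADs that carry GDF9 and BMP15 signals were split. Of 13 tested, 3 rose and 6 fell, with a median of -0.22. Both inhibitory SMADs rose. Smad7 went from 0.10 to 0.29 cRPKM up to 9 to 13.3 cRPKM (log2 5.62, SE 0.23, edgeR adjusted p = 3.11e-08). Smad6 went from 0.08 to 0.53 cRPKM up to 2.13 to 3.16 cRPKM (log2 3.10, SE 0.43, edgeR adjusted p = 0.000106). Smad4, the SMAD shared by the activin and BMP branches, fell 3.28-fold (log2 -1.71, SE 0.12, edgeR adjusted p = 6.27e-07), from 49.1 to 54.4 cRPKM down to 17.3 to 23.1 cRPKM. Acvr1b, a type I receptor, fell 4.04-fold (log2 -2.01, SE 0.26, edgeR adjusted p = 6.42e-05) from a level of 1.13 to 1.39 cRPKM. With library totals the counts were 6 higher and 5 lower, so the balance of this list depends on scaling, as does that of the whole table.

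Other ligands of the oocyte moved apart as well. Of 4, 1 rose and 1 fell, with a median of -0.02, and with library totals 2 were called higher and 1 lower, with a median of 0.23. Fgf8, which acts on cumulus metabolism together with BMP15, fell 3.81-fold (log2 -1.93, SE 0.19, edgeR adjusted p = 8.28e-06). Gdf3, a relative of GDF9 expressed in pluripotent cells, rose from 0.02 to 0.07 cRPKM to 0.44 to 1.26 cRPKM (log2 4.22, SE 0.55, edgeR adjusted p = 6.31e-05). Of 7 other oocyte transcription factor genes tested, 4 rose and 1 fell, with a median of 0.30. With no filter on low counts, and with each library left out in turn, 3 were called higher. Sohlh1 was listed at 0 reads in the 4 libraries of the 1-cell stage and at 1.38 to 2.60 cRPKM in those of the 2-cell stage, and no fold is given for it. The median does not depend on its size. Taf4b, an oocyte TFIID subunit gene, rose 3.07-fold (log2 1.62, SE 0.15, edgeR adjusted p = 6.08e-06). Sohlh2 fell 2.28-fold (log2 -1.19, SE 0.15, edgeR adjusted p = 4.3e-05). The factors listed beside Figla and Nobox thus moved in both directions, as genes did over the whole table.

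General oocyte and egg markers give the closest comparison for the 8 genes. Of 14 tested, 11 fell and 1 rose, with a median of -1.47. Zar1, an RNA-binding maternal factor gene, fell 13.6-fold (log2 -3.77, SE 0.14, edgeR adjusted p = 1.87e-08), and Mos, the kinase of metaphase arrest, fell 13.0-fold (log2 -3.69, SE 0.26, edgeR adjusted p = 6.82e-07). Btg4, an adaptor of the deadenylase that clears maternal mRNA, rose 1.72-fold (log2 0.78, SE 0.11, edgeR adjusted p = 0.00012). The steepest fall among the 8 members, that of Zp3, was shallower than those of Zar1 and Mos. Markers of other cells that an embryo pool could hold are given for the same comparison. Of 16 cumulus and granulosa markers tested, 3 were called higher and 5 lower, the latter count being 9 without the 1-cell mCherry library, 8 without the 2-cell mCherry library and 3 without either Snrpb library. Of 3 sperm markers tested 1 was called higher. Sperm markers summed to 3.14 to 5.31 cRPKM over the 8 libraries. The blood, fibroblast and oviduct markers summed to 0.47 to 0.63 cRPKM in the 1-cell libraries and 14.8 to 26.5 cRPKM in the 2-cell libraries, nearly all of it Epcam and Lyz2, and 3 of 4 tested were called higher. Hbb-bs, a globin gene, and Smcp, a sperm gene, were at 0 in every library. The part of such cells in the members' stage changes was not tested.

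**Figure D4:**
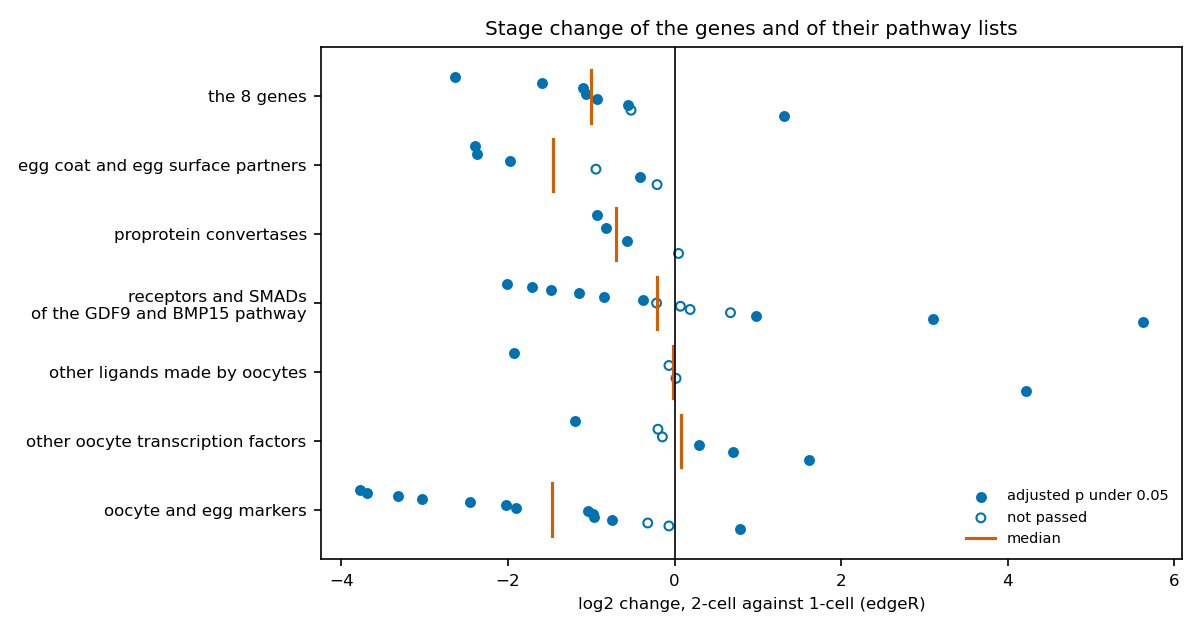
Log2 change of 2-cell against 1-cell embryos in edgeR (horizontal axis) for the 8 genes and for each list (rows): filled points have an adjusted p under 0.05, open points do not, and the vertical bar is the median of the points drawn. Sohlh1, with 0 reads in every 1-cell library, is left out. The 8 genes have a median of -0.998, and the oocyte and egg markers one of -1.47.

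For each member, the 3 genes with the most similar course over the 8 libraries were found by the root mean square difference of log2(cRPKM + 0.1), centred on each gene's mean, among 7086 genes with a mean of at least 5 cRPKM. Zp3 was nearest to Zcchc10, Padi6 and Txndc9 (0.06 to 0.08 log2 units). Padi6 encodes a maternal-effect protein of the oocyte's cytoplasmic lattices, and it went from a mean of 364 to 69.4 cRPKM. Zp2 was nearest to Fam45a, Pcyt1a and Dctn5, Zp1 to Hdac3, Coasy and Slc25a3, and Oosp1 to Vdac1, Rnpep and Arl3. The neighbours of Gdf9 lay farther away, Smoc2, Gtf2h3 and Mgst3 at 0.14 log2 units each. Bmp15 was nearest to Hps4, Lclat1 and Rtkn2, Nobox to Oser1, Utp14a and Slc25a31, and Figla to Cdk1, Optn and Cops5. None of the members searched (all but Figla, which was too low) was among the 3 nearest of another. Zp1 and Zp2 lay 0.33 log2 units apart, and the member closest to Zp3 was Gdf9, at 0.61 log2 units and rank 1243.

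The second comparison asked whether extra Sm mRNA altered these transcripts. In edgeR's quasi-likelihood test of the 3 Sm libraries against mCherry, 0 of the 8 members were called at the 1-cell stage, at the 2-cell stage, over both stages or in the difference between the stages. The background was 0% of 16867 genes at each stage and in that difference, and 0% of 16264 genes over both stages. The genes with an unadjusted p under 0.05 numbered 2618, 637, 1648 and 740 for the 1-cell stage, the 2-cell stage, the difference and both stages, and the members among them 2, 1, 2 and 1. DESeq2 called 423 genes higher and 117 lower at the 1-cell stage, with 0 members among them. With 1 mCherry library per stage, the test assumes that this library varies as the Sm libraries do.

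Gdf9 and Nobox were the members with an unadjusted p under 0.05 at the 1-cell stage. Gdf9 was above mCherry in all 3 Sm libraries, at 1.86 times with Snrpb (95% interval 1.84 to 1.88, counting error only), 1.54 times with Snrpd2 (1.52 to 1.56) and 1.17 times with both (1.16 to 1.19). The estimate over the 3 was 0.61 on the log2 scale (SE 0.23, edgeR adjusted p = 0.248). Nobox was below mCherry in all 3, at 0.76, 0.70 and 0.72 times, with an estimate of -0.45 (SE 0.13, edgeR adjusted p = 0.182). The 3 ratios of Nobox were nearly equal, while those of Gdf9 were spread, and neither gene passed the test.

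The other members showed smaller or less certain differences at that stage. Zp1 and Oosp1 were also above mCherry in all 3 Sm libraries, Zp1 at 1.06 to 1.45 times and Oosp1 at 1.07 to 1.33 times. Zp2, Zp3, Bmp15 and Figla were below it in all 3, at 0.83 to 0.89 times for Zp2, 0.77 to 0.84 times for Zp3 and 0.75 to 0.85 times for Bmp15. Figla was at 0.59, 0.60 and 0.76 times, with wide intervals (0.46 to 0.77 for Snrpb). So 3 members lay above and 5 below mCherry in all 3 Sm libraries, where 31% and 39.4% of genes did. No member passed 2-fold in any Sm library, a rule that called 3.33%, 3.7% and 3.22% of genes higher and 1.29%, 1.48% and 0.968% lower at this stage. Because the 3 ratios share 1 mCherry library, a deviation of that library moves all of them the same way.

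Cumulus and granulosa cells express receptors for GDF9 and BMP15, and the summed level of their markers is given for the same 1-cell libraries. The 17 markers summed to 26.8 cRPKM with mCherry and to 40.0, 37.0 and 54.3 cRPKM with Snrpb, Snrpd2 and both. For the Sm effect at this stage, the 16 tested had a median log2 change of 1.36, where the median over all genes was no change. That value rests on 1 mCherry library. As given above, edgeR called no gene of the whole table at this stage, so its calls cannot set these markers apart. Cyp19a1 alone held 15.5 to 19.7 cRPKM of each sum. All 17 were found and none was at 0 in every library, though 2 (Amh and Vcan) stayed under 0.5 cRPKM throughout. Gdf9 was highest with Snrpb, and the marker sum with both mRNAs. In the 2-cell libraries the sum was 25.1, 26.2, 35.0 and 29.1 cRPKM, with a different make-up. Cyp19a1 held 3.46 to 4.6 cRPKM of these sums. Foxl2 went from 0.02 to 0.05 cRPKM at the 1-cell stage up to 3.34 to 5.4 cRPKM. Amhr2 went from 0.17 to 1.05 cRPKM up to 2 to 6.45 cRPKM. Between the stages 3 of the 16 tested were called higher and 5 lower, as given above. In a pool of embryos, more such cells and more RNA per cell cannot be told apart. Which cells the marker RNA came from was not measured. The part of cumulus and granulosa cells in the differences of the members was not tested.

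The 2-cell libraries gave the following ratios, in the same order. Gdf9 was at 0.70, 0.89 and 0.84 times mCherry, and the estimate was -0.31 (SE 0.22). Bmp15 was at 0.80, 0.72 and 0.84 times, and the estimate was -0.35 (SE 0.15, edgeR unadjusted p = 0.0351, adjusted p = 1). Gdf9, Bmp15 and Oosp1 were below mCherry in all 3 libraries, where 22.4% of genes were, and 0 members were above it in all 3, where 23.6% were. Oosp1 was at 0.94, 0.98 and 0.86 times, and with other scalings its Snrpd2 library lay at or above mCherry. Zp1 was at 0.79, 1.07 and 0.89 times, Zp2 at 0.93, 1.01 and 1.07 times, and Zp3 at 0.87, 1.15 and 0.97 times. Nobox was at 0.99, 1.15 and 1.06 times, and Figla at 0.95, 1.26 and 1.03 times with intervals that included no change. These 5 genes lay on both sides of mCherry. Again no member passed 2-fold, against 2.65%, 2.84% and 2.18% of genes higher and 1.71%, 1.51% and 1.34% lower. Bmp15 was thus the member below mCherry in all 6 Sm libraries. Of all genes, 39.4% lay below mCherry in all 3 at the 1-cell stage and 22.4% at the 2-cell stage. The share of genes below it in all 6 was not counted. The estimate for Bmp15 over both stages was -0.33 (SE 0.12, edgeR unadjusted p = 0.0228, adjusted p = 0.87). The difference between the Sm effects of the stages (2-cell minus 1-cell, log2) was -0.92 for Gdf9 (SE 0.32, edgeR unadjusted p = 0.014, adjusted p = 0.42) and 0.54 for Nobox (SE 0.19, edgeR unadjusted p = 0.0176, adjusted p = 0.424). For the others it was 0.72 (SE 0.54) for Figla, -0.43 (SE 0.29) for Zp1, -0.40 (SE 0.22) for Oosp1, 0.29 (SE 0.24) for Zp3, 0.19 (SE 0.19) for Zp2 and -0.04 (SE 0.21) for Bmp15, and none passed the test.

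**Figure D5:**
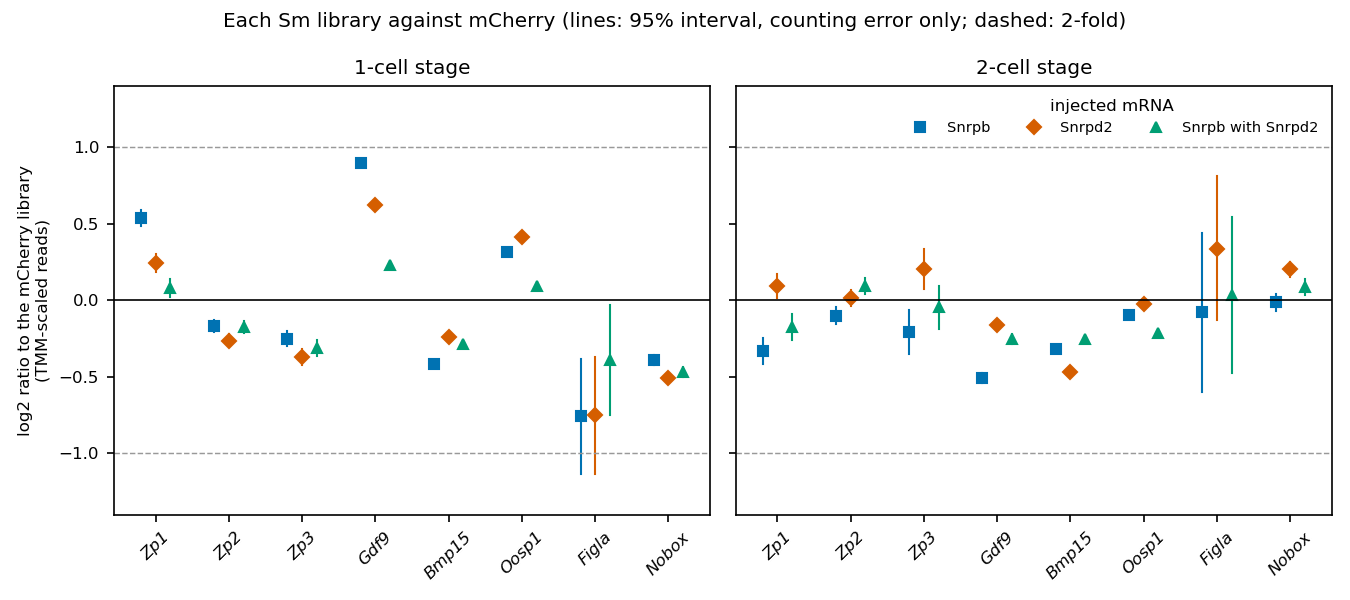
Log2 ratio of each Sm library to the mCherry library of its stage on TMM-scaled reads (vertical axis), for each gene (horizontal axis) at the 1-cell stage (left) and the 2-cell stage (right). Lines are 95% intervals for counting error only, and dashed lines mark 2-fold. Gdf9 lies at 0.90, 0.63 and 0.23 at the 1-cell stage and at -0.51, -0.16 and -0.25 at the 2-cell stage, and no point reaches 2-fold.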

How the data were processed

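Poly(A) RNA of 8 pooled embryo libraries was measured, 1 per condition. The authors deposited, for each library, whole-number counts of reads per gene and cRPKM, an RPKM value, under Ensembl identifiers. The submitters' processing notes name mm9 as the build; the sources used here do not say which aligner or annotation was used, or whether strand was. In 2662 genes with many reads in every library, cRPKM equalled the count over a fixed length and the library total within 0.206%, so cRPKM follows the library total and not TMM. Symbols came from GENCODE vM21 by identifier (20759 of 22667 matched), and 1114 genes without a value were left out. The length implied by cRPKM was 49 bases below the GENCODE transcript for 7 members and 82 below for Zp2.

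Counts were tested with edgeR 4.0.16 in R 4.3.3 (TMM, filterByExpr, quasi-likelihood, Benjamini-Hochberg over all genes, adjusted p of 0.05). The stage effect and the Sm effect over both stages came from a model of injection and stage (16264 genes, 3 residual degrees of freedom). The Sm effect within a stage, and its difference between stages, came from a model of 4 groups (16867 genes, 4 residual degrees of freedom). P-values measure the spread between differently treated libraries, not between replicates. In the model of injection and stage, that spread is what remains after both terms. The standard error is the absolute log2 change over the root of F. Single libraries were compared on TMM-scaled reads, with factors from all genes, where the fits used factors from genes past the filter. Their intervals are exact conditional binomial 95% intervals. These cover counting error only, because reads copied by PCR and carrying no molecular identifier are not separate molecules. A count of 0 allows up to 3 reads, or 0.05 to 0.076 CPM. Alternatives were DESeq2 1.42.0, limma 3.58.1 on log2(cRPKM + 0.1) and log2(cRPKM + 1), other scalings, no filter and each library left out. The edgeR fit of the stage effect was tried on simulated counts.

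The members and lists were chosen with earlier results of these data known. All members are named in each comparison, and for the stage effect, from each list, the genes with the 2 largest called changes in each direction; Oosp3 is named because Oosp1 is set against it, and the marker genes after their values were seen. Lhx8 and Oog1 had no match by symbol.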

Additional observations from a re-analysis of the deposited data

Results flagged for a closer look

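Gdf9 lay above mCherry in all 3 Sm libraries of the 1-cell stage and below it in all 3 of the 2-cell stage. The difference between the 2 Sm effects was -0.92 on the log2 scale (SE 0.32), and it did not pass the test (edgeR adjusted p = 0.42, and 0.158 to 0.575 over 13 alternatives). The 2 mCherry libraries enter all 6 ratios. Of all genes, 31% lay above mCherry in all 3 Sm libraries at the 1-cell stage. At the 2-cell stage 22.4% lay below it in all 3. The share of genes that did both was not counted.

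Oosp1 was drawn out by the same pattern, with a difference of -0.40 (SE 0.22, edgeR adjusted p = 0.588). Its 2-cell Snrpd2 library was at 0.98 times mCherry, and with library totals, with DESeq2 size factors, with cRPKM ratios or with TMM scaling that leaves out the injected genes, that library was no longer below mCherry. No library of either stage stood apart from the other 3 for any of the 8 genes by Dixon's test.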

How the results depend on the processing

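The 6 falls and the rise between the stages kept direction and call in all 15 alternatives. Of the named list genes, Pcsk5 lost its call with library totals (-0.67), with limma at either pseudocount (-0.63 at 0.1 and -0.35 at 1), without the 1-cell Snrpb library (-0.45) and without the 2-cell Snrpb library (-0.45). Oosp3 passed in 8 of 15, with -0.60 to -0.16 over all of them. The cause was not tested for either. Calls of members past 2-fold between stages, in either direction, were summed over the injections, so a member could count in each injection. These calls numbered 18 with TMM and 13 with library totals or cRPKM ratios. The shares of all genes past 2-fold are given above for TMM alone. Whether the drop was particular to the members was not tested.

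For the Sm comparisons, 0 members were called in any alternative, while the genes called over the whole table varied. Over both stages edgeR called 0 genes, DESeq2 3 higher, limma 1 higher at either pseudocount, and leaving out a library 0 to 1. For the 1-cell stage DESeq2 called 423 higher and 117 lower, limma at 0.1 called 1 lower, and leaving out a library gave 0 to 3 higher. For the 2-cell stage limma at 0.1 called 2 higher. The difference between stages had 12 higher and 51 lower with DESeq2 and 1 higher with limma at 0.1.

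Sm estimates near 0 changed sign. Over both stages, leaving out a library moved the estimate of Zp1 from -0.11 to 0.30, Zp2 from -0.20 to 0.014, Zp3 from -0.30 to 0.00096, Gdf9 from -0.28 to 0.60, Oosp1 from -0.099 to 0.28, Figla from -0.62 to 0.12 and Nobox from -0.45 to 0.11. For each of the 7 one end came without the 1-cell and the other without the 2-cell mCherry library, and Zp1 (-0.047) and Gdf9 (-0.036) also changed sign without the 1-cell Snrpb library. The 2-cell estimates of Zp2 and Zp3 were 0.017 and 0.0093 with DESeq2 size factors or DESeq2, 0.042 and 0.035 with library totals, 0.039 and 0.021 with limma at 0.1, and 0.039 and 0.020 with limma at 1, and Zp2 was at 0.0032 with no filter. Leaving out a library put Zp2 between -0.047 and 0.047, Zp3 between -0.13 and 0.078 and Figla between -0.020 and 0.19. The stage difference of Bmp15 was 0.034 with library totals, 0.037 with limma at either pseudocount, and -0.088 to 0.00078 with a library left out. The stage test itself pairs the libraries by injection, and no fit with replicate numbers as a block was made, since the labels carry none and each condition has 1 library. Without a mCherry library, the Sm effect of its stage has no value.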
